A study of Sus scrofa with 18 samples.

Results

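The genes described here mark lymphocytes: T cells (CD3E, CD2, CD4, CD8A and CD8B), natural killer (NK) and cytotoxic T cells (KLRK1), B cells (CD79B) and lymphocytes that home to lymph nodes (CCR7). The samples came from 9 pigs and were cut from the right ventricular free wall. The list named 9 symbols, and 8 of them had a probe set that the probe-to-gene table assigns to that gene alone, out of 6765 genes named in this way on the array. The 8 genes were read by 9 probe sets, since CD4 had 2 and each other gene 1. The ninth symbol, CD5, is not among the single-gene names of that table and was not analysed here. The genes were selected on their levels relative to the array median and on their paired failure minus baseline changes over all 18 arrays, so both, and correlations made from them, are given as a description with no test. The 95% intervals beside the changes are those of the mean change, not the range of the pigs, and decide nothing. Only differences between sets of pigs were tested for these genes. The selection did not use that contrast, but the tests draw on the same levels and changes, so they are not independent of it.

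Each pig, of a mixed Hampshire, Yorkshire and Swedish Landrace breed, gave a failure sample and a baseline sample, which made 9 failure and 9 baseline arrays. Failure followed ligation of coronary arteries of the right ventricle. The labels of pigs 5, 10 and 14 define failure as a right atrial pressure above 20 mmHg and give weights of 30 to 40 kg (called label set 2). Those of pigs 6, 8, 9, 11, 12 and 13 state 120 min of ischemia in the failure sample (label set 1). No age, sex or sham-operated group is given, so the time between the samples and the operation cannot be told apart from failure itself.

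T cells recognise antigen through a receptor that signals through the CD3 chains. CD4 and CD8 are coreceptors that bind major histocompatibility complex (MHC) class II and class I molecules on the other cell, and both help to bring the kinase LCK to the receptor. CD8 is a pair of chains: most conventional cytotoxic T cells carry CD8A joined to CD8B, whereas NK cells of the pig and part of its activated helper T cells carry CD8A without CD8B. Healthy heart muscle holds few lymphocytes, some resident and some in the blood of its vessels. In such bulk samples fewer cells of a type and less RNA per cell cannot be told apart.

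The labelled tissue was checked against cardiomyocyte genes. Values are log2 intensities, and array medians ran from 5.59 to 5.66. All 9 measured cardiomyocyte genes lay above the array median, among them MYH7, the slow myosin heavy chain, at 14.94 in failure and 14.96 at baseline. The 8 lymphocyte markers, selected in part on this level, lay below it on average, with a difference from -0.43 (CD8B) to -2.11 (CD4) on the log2 scale. Of the CD4 values at the brighter probe set, all 9 in failure and all 9 at baseline lay under the 25th percentile of their array, and KLRK1 did so in 6 failure and 1 baseline samples. Of the 51 other lymphocyte genes described later, 31 lay below the array median. No detection calls were used, so how far such levels stand above background is not known.

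CD8A, the chain of the CD8 coreceptor shared by cytotoxic T cells and NK cells, had the lowest mean change of the markers. Its lowest, median and highest values were 4.12, 4.30 and 5.08 in failure, against 4.61, 5.03 and 5.47 at baseline. In 7 of 9 pigs the failure value lay below the lowest baseline value, and the groups overlapped through pigs 8 and 9. The share of all probe sets separated this far was not computed, so nothing is read from this count. The mean was 4.47 ± 0.32 in failure and 4.97 ± 0.28 at baseline (SD, n = 9 each), a log2 change of -0.49 (SE 0.12, 95% interval -0.75 to -0.24) or 1.41-fold lower. The change was below 0 in 8 pigs, as it was for KLRK1, and 1.97% of all tested probe sets lay lower in at least 8 of 9 pigs. It was -1.29 in pig 5, -0.94 in pig 11 and -0.73 in pig 12, against -0.08 in pig 8 and 0.10 in pig 9.

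CD8B, the partner chain, had a mean change near 0. Its values ran from 5.003 through a median of 5.20 to 5.39 in failure, against 4.93, 5.19 and 5.70 at baseline. The groups overlapped almost wholly, and the mean change was 0.00498 (SE 0.07, 95% interval -0.15 to 0.16), below 0 in 4 pigs and above in 5. The change of CD8A minus that of CD8B averaged -0.50 ± 0.36 (SD, n = 9) and was below 0 in 8 of 9 pigs, with a range from -0.90 in pig 11 to 0.09 in pig 9. CD8A and CD8B are direct neighbours in the RefSeq gene table of assembly Sscrofa11.1, with 0 genes starting between them.

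KLRK1, which encodes the activating receptor NKG2D of NK and CD8+ T cells, had the next lowest mean change. Its values were 3.32, 3.94 and 4.20 (lowest, median and highest) in failure, against 3.96, 4.18 and 4.86 at baseline. In 5 pigs the failure value lay below the lowest baseline value, and 4 baseline values lay above the highest failure value. As for CD8A, the share of all probe sets separated this far was not computed. The mean was 3.91 ± 0.26 in failure and 4.26 ± 0.30 at baseline (SD, n = 9 each), a log2 change of -0.36 (SE 0.10, 95% interval -0.57 to -0.14) or 1.28-fold lower. It was lowest in pig 14 at -1.08 and in pig 10 at -0.66, and it was 0.06 in pig 11. The values of CD8A and KLRK1 were deposited with at most 2 decimals and those of the other 6 markers with more. Over all tested probe sets, having at most 2 decimals went with the comparison itself. Of 1467 such probe sets, 1431 had an unadjusted p under 0.05 in an unmoderated paired test, against 0 of the other 22468. Whether the values with fewer decimals were made in another way is not known, which limits what the changes of these 2 genes can be taken to mean.

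**Figure D1:**
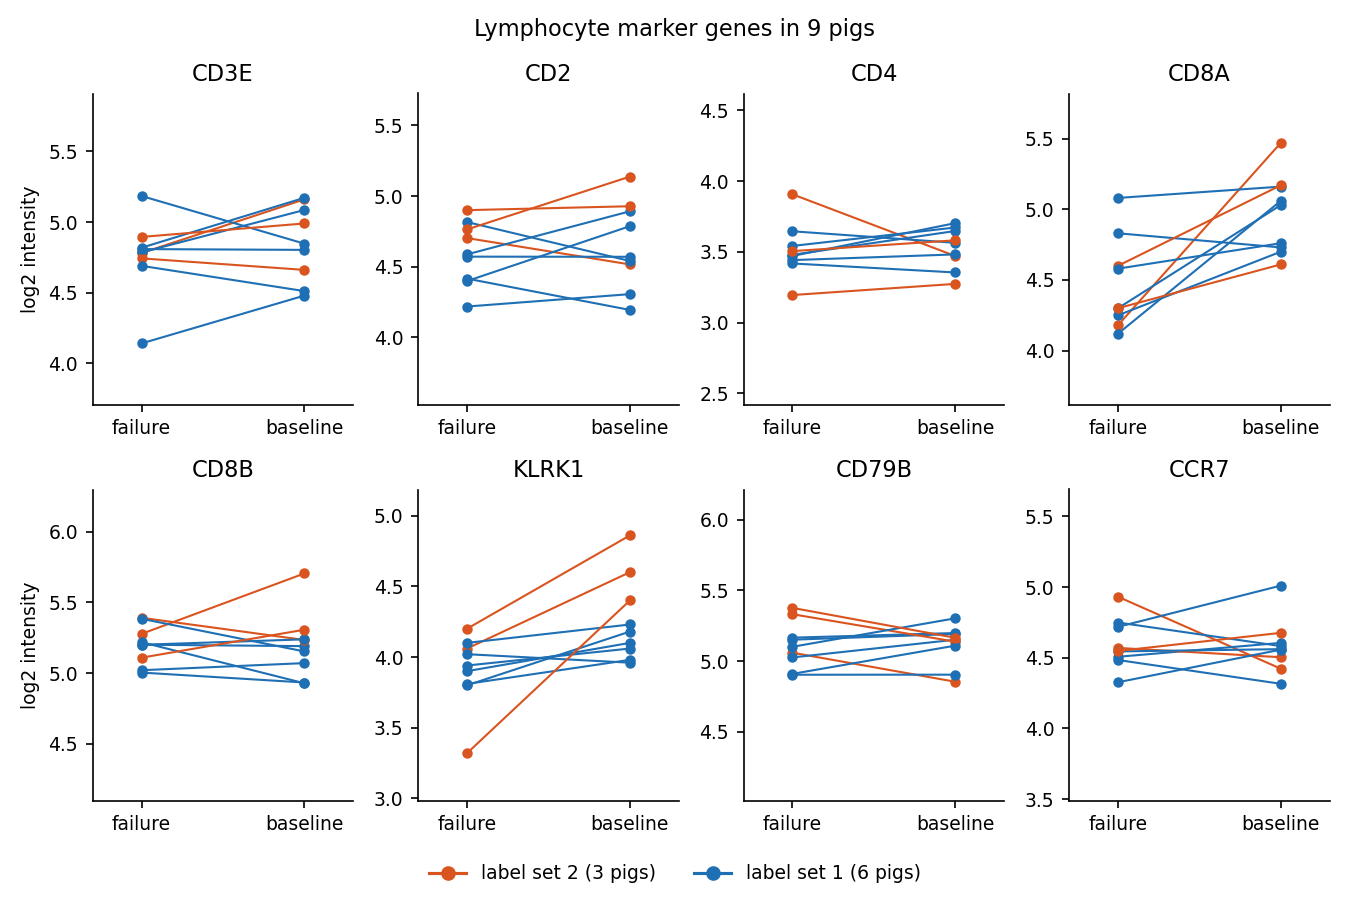
Log2 intensity of the 8 lymphocyte markers in failure (left) and at baseline (right), with 1 line per pig, coloured by label set, and the brighter probe set for CD4. Each panel spans the same height, so slopes can be compared. Lines of CD8A and KLRK1 run lower in failure in 8 of 9 pigs, and those of the other genes cross.

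The T cell markers CD3E, CD2 and CD4 had mean changes between -0.10 and -0.02. CD3E, a chain of the T cell receptor complex, had values of 4.14, 4.79 and 5.18 (lowest, median and highest) in failure, against 4.48, 4.85 and 5.17 at baseline. Its mean change was -0.10 (95% interval -0.27 to 0.08), below 0 in 5 pigs. CD2, an adhesion receptor of T and NK cells that binds CD58, ran from 4.22 through 4.59 to 4.90 in failure, against 4.19, 4.57 and 5.14 at baseline. Its mean change was -0.06 (-0.23 to 0.11), below 0 in 5 pigs. In both genes the groups overlapped over nearly their whole range.

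CD4, the coreceptor of helper T cells, had values of 3.19, 3.48 and 3.91 in failure, against 3.27, 3.56 and 3.70 at baseline at its brighter probe set. The mean change there was -0.02 (-0.16 to 0.13), with 6 pigs below 0. The dimmer CD4 probe set had a mean change of 0.05 (-0.07 to 0.18), with 3 pigs below 0, so the sign differed between the probe sets.

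CD79B, a signalling chain of the B cell receptor, ran from 4.90 through 5.10 to 5.38 in failure, against 4.85, 5.15 and 5.30 at baseline. Its mean change was 0.00125 (-0.13 to 0.14). The spread of its changes, 0.17 (SD, n = 9), was low, exceeding that of 15.3% of the 1000 probe sets nearest in level. CCR7, the receptor for CCL19 and CCL21 that guides naive and central memory T cells, had values of 4.33, 4.55 and 4.93 in failure, against 4.32, 4.56 and 5.01 at baseline, and a mean change of 0.02 (-0.15 to 0.18). The spread of the CD8A changes (0.44) exceeded that of 95.4%, and of the KLRK1 changes (0.35) that of 88.8%, of the probe sets nearest in level. Among the 8 genes, CD8A and KLRK1 thus had both the largest mean changes in size and the largest spread between pigs. They are also the 2 markers deposited with at most 2 decimals. That form went with the paired comparison itself, so the limit given above holds for this contrast.

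**Figure D2:**
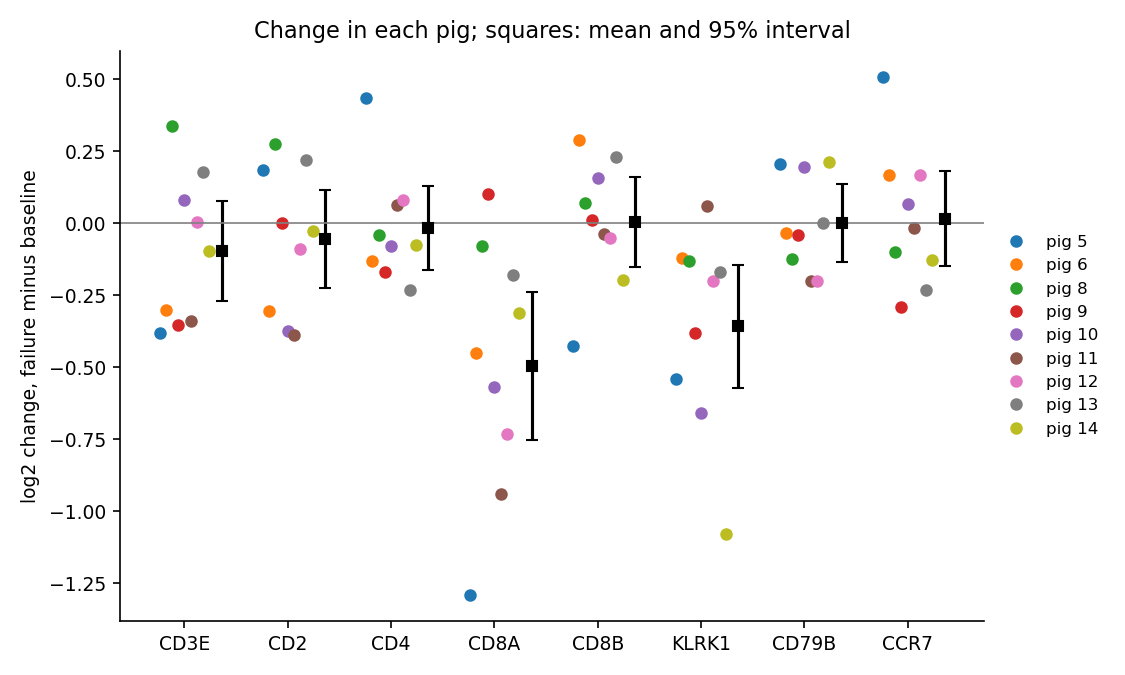
Log2 change, failure minus baseline, of the 8 markers in each of the 9 pigs (dots), with the mean and its 95% interval from limma (squares). The means run from -0.49 (CD8A) and -0.36 (KLRK1) to 0.02 (CCR7), and pig 5 is lowest for CD8A and highest for CD4 and CCR7.

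Over all 23935 tested probe sets, 16 (0.0668%) passed an adjusted p of 0.05 in limma, which compares failure with baseline within pigs, 0.046% with a lower and 0.0209% with a higher level in failure. Of the 8 markers 0 were among them, and 2 (CD8A and KLRK1) had an unadjusted p under 0.05, where 6.14% of all probe sets did. Since this contrast was known when the genes were chosen, nothing is read from these counts. In rank, 0.0710% of all probe sets had a mean change below that of CD8A and 0.196% below that of KLRK1, whereas the other 6 genes lay between 12.04% and 58.02%. The median change of the 8 genes was -0.04, against 0.000344 over all tested probe sets.

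**Figure D3:**
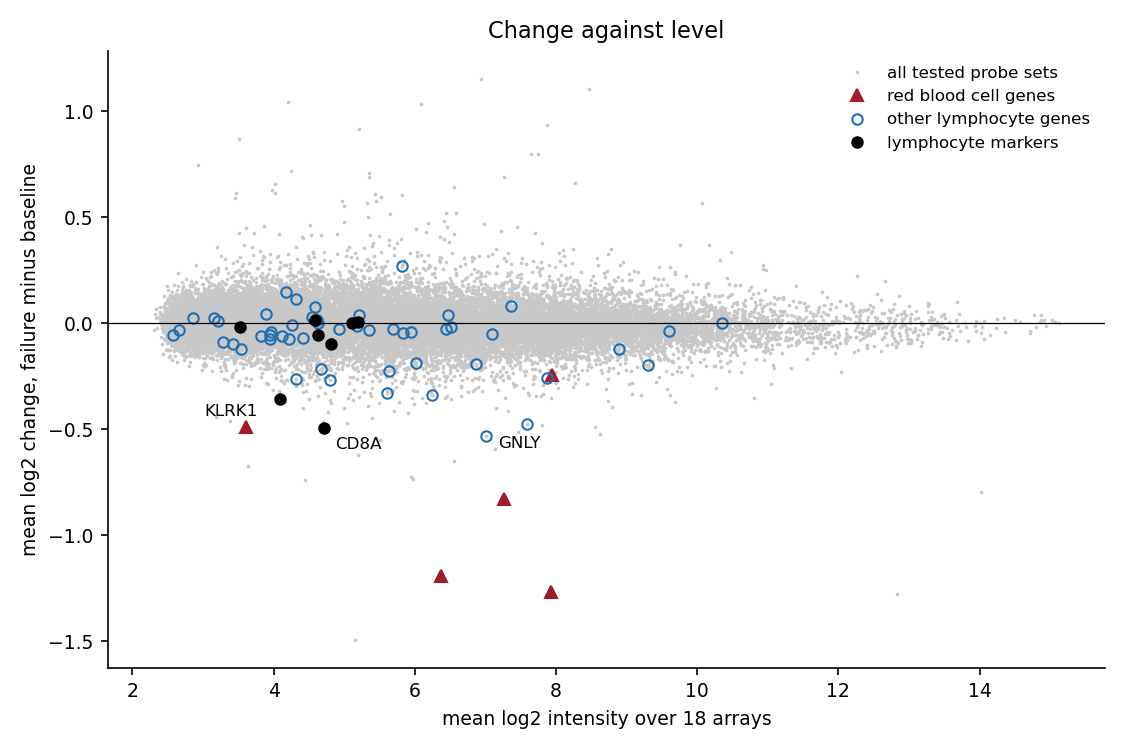
Mean log2 change, failure minus baseline, against mean log2 intensity over 18 arrays for all 23935 tested probe sets (grey), with the lymphocyte markers (black), other lymphocyte genes (open circles) and red blood cell genes (triangles). CD8A and KLRK1 lie at the lower edge of the probe sets of their level, and the other 6 markers lie inside the cloud. The open circles include ligands and partners of the markers.

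The wider lymphocyte programme was described with 5 gene lists, of which 128 further symbols included 51 measured genes. These lists include ligands and partners of the markers, so the 51 genes are not all markers of lymphocytes. In limma 0 of the 51 passed in either direction, where 0.0668% of all tested probe sets did. An unadjusted p under 0.05 was reached by 11 of the 51, against 375 of the 6765 named genes at 1 probe set each. Of the 51, 5 were deposited with at most 2 decimals. The lists were chosen with earlier results known, so no excess is read from this count. Of the 51 genes, 36 lay lower and 15 higher, with a median change of -0.04. Over 1 probe set for each of the 6765 named genes 53.6% lay lower, with a median of -0.00659. Within pigs, the number of the 51 genes below baseline was 19 in pig 8 and 23 in pig 12, and between 26 and 38 in the other 7. Of all tested probe sets, from 45.9% (pig 13) to 51.3% (pig 14) lay below baseline within a pig. Without pig 5, whose GAPDH values stood apart, 37 lay lower, and with any other pig left out 35 to 39.

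Genes of cytotoxic granules and NK cells lay lower in 9 of 10, with a median of -0.08. The exception was the adaptor gene TYROBP, at 0.08. GNLY, which encodes the granule protein granulysin and has a level above the array median, had values of 6.34, 6.70 and 7.06 (lowest, median and highest) in failure, against 6.51, 7.31 and 7.90 at baseline. It was lower in 9 of 9 pigs, with a log2 change of -0.53 (SE 0.11) that did not pass (adjusted p = 0.153 in limma). CCL5, a chemokine of T and NK cells, showed a log2 difference of -0.34 (SE 0.11) that did not pass (adjusted p = 0.591 in limma). Only in pig 8 was it above baseline, by 0.56. GZMH, a granzyme protease, showed one of -0.33 (SE 0.10, adjusted p = 0.509), with pig 9 the only pig above baseline. GNLY, CCL5 and GZMH, like LCK, were also deposited with at most 2 decimals, so the same limit holds for them. PRF1, which encodes the pore-forming protein perforin, had a mean change of -0.07 (95% interval -0.23 to 0.09). It was lower in 7 pigs and higher in 2, with a median change of -0.15 and a highest of 0.46. Its level lay 1.21 below the array median.

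T cell genes lay lower in 11 of 15, with a median of -0.06 and 0 past the threshold. LEF1, a transcription factor of naive T cells, had a change of -0.27 (SE 0.10, adjusted p = 0.695). LCK, the kinase that works with CD4 and CD8, had a change of -0.26 (SE 0.09, adjusted p = 0.591). CD3D, another chain of the CD3 complex, had a change of -0.21 (SE 0.09, adjusted p = 0.753). FOXP3, which marks regulatory T cells, had a change of 0.08 and the activation marker CD69 of 0.01.

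B and plasma cell genes lay lower in 6 of 8 (median -0.03). The largest changes were -0.22 (SE 0.09, adjusted p = 0.737) for JCHAIN, the joining chain of secreted antibodies, 0.12 for the plasma cell receptor TNFRSF17 and -0.08 for the kinase BTK. Homing and chemokine receptors lay lower in 3 of 7 (median 0.000444), with CXCR6 at 0.15, CCR9 at -0.06 and CXCR4 at -0.05, none past the threshold. Of ligands and partners of the markers 12 of 16 lay lower (median -0.06), some of which the T cell list also holds. CXCL9, an interferon-induced chemokine that attracts T cells, had a change of -0.47 (SE 0.23, adjusted p = 0.824), from -2.33 in pig 10 to 0.60 in pig 13. CCL21, a ligand of CCR7, stood at 0.27 (SE 0.14, adjusted p = 0.850) and CCL19, the other ligand, at 0.04.

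**Figure D4:**
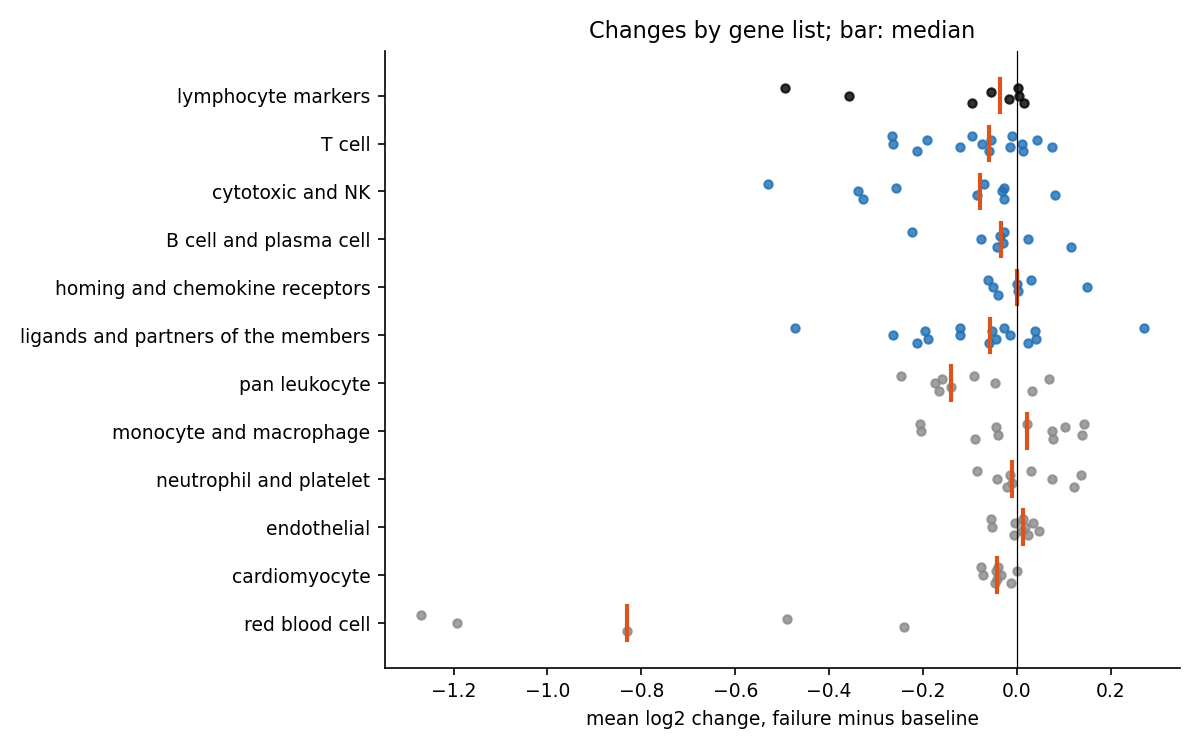
Mean log2 change, failure minus baseline, of every measured gene of each list (dots, at the brightest probe set) with the list's median (bars). Medians of the lymphocyte lists lie between -0.08 and 0.000444, and that of the red blood cell genes lies at -0.83.

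Markers of other cells were measured beside them. Genes shared by most leukocytes lay lower in 7 of 9 (median -0.14), with ITGB2 at -0.25, RAC2 at -0.17 and LAPTM5 at -0.17, none past the threshold, and the log2 of their summed intensity ran from 9.43 to 10.39 in failure, against 9.62 to 10.32 at baseline. For the 8 lymphocyte markers this sum ran from 7.44 to 7.74 in failure, against 7.54 to 7.91 at baseline. Neutrophil and platelet genes lay lower in 5 of 9 (median -0.01), with S100A8 at 0.14, ELANE at 0.12 and ITGA2B at -0.09. Their sum ran from 7.89 to 8.24 in failure, against 7.99 to 8.37 at baseline. Monocyte and macrophage genes lay lower in 5 of 11 (median 0.02), with C1QA at -0.21, C1QC at -0.20 and ITGAM at 0.14, and a sum from 9.94 to 11.02 in failure, against 10.08 to 11.12 at baseline. Endothelial genes lay lower in 4 of 10 (median 0.01), with CLDN5 at -0.06, ENG at -0.05 and TEK at 0.05, and cardiomyocyte genes in 8 of 9 (median -0.04), with MYL3 at -0.08, TNNT2 at -0.07 and PLN at -0.05. Of these 4 lists 0 genes passed.

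Red blood cell genes had the lowest median of the lists. All 5 lay lower (ALAS2 at -1.27, AHSP at -1.19, HBM at -0.83, HBE1 at -0.49 and HBB at -0.24), 3 of them past the threshold (adjusted p = 0.00486 for ALAS2, 0.0205 for AHSP and 0.0208 for HBM in limma). These 3 were deposited with at most 2 decimals, as were all 16 probe sets past the threshold. The limit given for CD8A and KLRK1 therefore holds for them too. The summed level of the 5 genes ran from 8.64 to 9.86 in failure, against 9.49 to 11.08 at baseline. Over the 9 pigs, the change of KLRK1 ran against the change averaged over these 3 genes (r = -0.83, rho = -0.68). Pig 14, with the lowest KLRK1 change, had a red blood cell change of -0.07, against -1.79 in pig 8, whose KLRK1 change was -0.13. Within label set 1 (6 pigs) r was -0.69, and without the 2 pigs farthest from the median it was -0.62. For CD8A the same relation had r = 0.08 and rho = 0.18. The part of red blood cells in the changes of the markers was not tested.

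RNA quality was read from GAPDH, as the log2 level at its 3' end minus that at its 5' end. Pig 5 stood at 3.55 in failure and 2.61 at baseline, against 0.31 to 2.17 in failure and 0.61 to 1.49 at baseline in the other pigs. Without pig 5 the mean change of CD8A was -0.39 and that of KLRK1 was -0.34 (n = 8). With the GAPDH difference as a covariate the change was -0.43 (95% interval -0.71 to -0.15) for CD8A and -0.40 (-0.64 to -0.16) for KLRK1.

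The changes of the markers did not all run together over pigs. Among 28 pairs of genes the correlation of their changes over 9 pigs had a median of -0.05, and it was above 0 in 12 pairs. CD8A and CD8B had r = 0.57 and rho = 0.45, and CD8A and KLRK1 had r = -0.03 and rho = -0.02. Within label set 1 r was 0.32 for the first of these pairs and -0.74 for the second. The 3 correlations farthest from 0 were negative. CD8A ran against CCR7 (r = -0.86, rho = -0.80) and against CD4 (r = -0.86, rho = -0.73), and KLRK1 ran against CD79B (r = -0.85, rho = -0.70). The points of a pair share their arrays, and these values are a description.

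Single pigs weighed on these values. Pig 5 had the lowest CD8A change (-1.29) together with the highest changes of CCR7 (0.51) and CD4 (0.44). Without the 2 pigs farthest from the median of the first gene, r was -0.59 for CD8A with CCR7, -0.70 for CD8A with CD4 and -0.79 for KLRK1 with CD79B. Within label set 1 the same pairs had values of -0.71, -0.76 and -0.48.

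**Figure D5:**
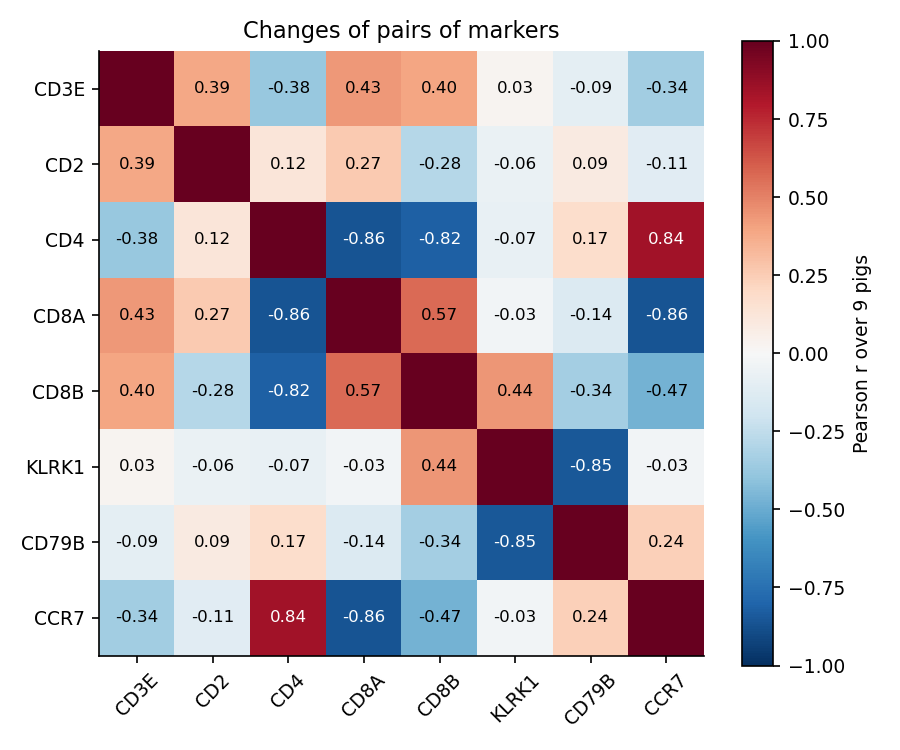
Pearson correlation over 9 pigs between the failure minus baseline changes of each pair of markers, from -1 (blue) to 1 (red). CD8A is opposed to CD4 and CCR7 (both -0.86), and CD3E, CD2, CD8A and CD8B show r from -0.28 to 0.57 among themselves.

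Failure and baseline levels of a gene, set against each other over the 9 pigs, had r from -0.05 (CD8A, rho = -0.02) to 0.57 (CD2, rho = 0.53). Within label set 1 r was 0.12 for CD8A and 0.38 for CD2, and without the 2 farthest pigs it was 0.15 and 0.46.

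The label sets were compared in an interaction term, a contrast other than the one the genes were selected on but made from the same values. For KLRK1 the mean change was -0.76 ± 0.28 (SD, n = 3) among the pigs of label set 2, against -0.16 ± 0.14 (SD, n = 6) among those of label set 1. The difference of -0.60 (95% interval -0.91 to -0.29) did not pass over all probe sets (adjusted p = 0.867 in limma), as 0 of 23935 did (0%, with 5.67% at an unadjusted p under 0.05). The KLRK1 values of the 3 pigs of label set 2 were the 3 highest at baseline, with a mean of 4.62 ± 0.23, against 4.08 ± 0.11 in label set 1. This baseline difference of 0.54 (0.28 to 0.79) did not pass either (adjusted p = 0.249 in limma), where 0.0209% of all probe sets passed and 13.9% had an unadjusted p under 0.05. Each change is the failure value minus the baseline value. The difference in change therefore contains the baseline difference and is not a separate finding. In failure pigs 5, 10 and 14 lay at 4.06, 4.20 and 3.32, inside, above and below the range of the other 6 pigs. CD8B had a baseline level of 5.41 ± 0.25 (SD, n = 3) in label set 2, against 5.09 ± 0.13 (SD, n = 6) in label set 1. Neither this difference (adjusted p = 0.310 in limma) nor that of any of the other 6 genes (smallest adjusted p = 0.450) passed.

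For CD79B it was 0.20 ± 0.01 (SD, n = 3) in label set 2, against -0.10 ± 0.09 (SD, n = 6) in label set 1. All 3 pigs of label set 2 lay above 0 and all 6 of label set 1 below, pig 13 at -0.00049. The difference of 0.30 (0.06 to 0.54) did not pass (adjusted p = 0.867 in limma). For CD8A the means were -0.72 ± 0.51 in label set 2, against -0.38 ± 0.40 in label set 1, and the difference of -0.34 (-0.87 to 0.18) did not pass (adjusted p = 0.924 in limma). For the other 5 genes the intervals of the difference held 0.

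Genes whose changes over the 9 pigs were most like those of a marker were sought among 4929 named genes above the array median. For CD8A they were GTF2F2 (r = 0.94, rho = 0.93), ZC3H15 (r = 0.93, rho = 0.93) and WDR70 (r = 0.93, rho = 0.90). Their mean changes were 0.01, -0.06 and -0.04, so they followed the order of the pigs without the shift. For KLRK1 they were RABEPK (r = 0.91, rho = 0.88), XRN2 (r = 0.87, rho = 0.85) and NGDN (r = 0.87, rho = 0.77). For CD3E they were PYGO2 (r = 0.90, rho = 0.93), FBXO31 (r = 0.88, rho = 0.95) and CAP1 (r = 0.88, rho = 0.85). None of the 9 is on a leukocyte list used here. The search left out genes below the array median, where all 8 markers and 31 of the 51 other lymphocyte genes lay. This absence therefore says little. As the best of 4929 over 9 points that share arrays, these values are a description, with no test.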

How the data were processed

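Total RNA (250 ng per sample) was turned into biotin-labelled cRNA for an Affymetrix 3' array, per the labels' protocols. The authors deposited 1 log2 intensity for each probe set and array. Their software was Partek, per the submitters' processing notes. Background correction, normalization and summarization: not given in the sources used here. Values were used as deposited, after 188 control and reporter probe sets had been left out of 24123. Array medians are nearly equal, so a shift shared by most transcripts would be hidden.

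A gene was read at the brightest of its probe sets with 1 symbol. All 8 genes matched RefSeq by gene identifier. Failure was compared with baseline in limma 3.58.1 under R 4.3.3, with the pig as a blocking term and two-sided p-values adjusted by Benjamini-Hochberg over 23935 probe sets (threshold 0.05). The pairing comes from the pig numbers of the labels. Standard errors and 95% intervals are from this fit. Correlations over pigs are given as a description. Exact permutation p-values were computed for marker pairs, for failure against baseline levels, and for marker changes against red blood cell and GAPDH changes. They are used here only to count pairs across alternatives. Precision is limited by the number of animals. Each fit was first tested on simulated data.

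The genes, lists and tests were chosen with earlier results of these data known. Named genes are all markers, red blood cell genes, the 3 largest changes of each other list, any past the threshold, and the 3 genes most like CD8A, KLRK1 and CD3E. TYROBP, FCGR3A, PRF1, FOXP3, CD69, CCL19 and MYH7 are named outside this rule, after their values were seen. Alternatives were no block, a random block, other scalings, a filter on dim probe sets, another variance model, an RNA quality covariate, leaving out single pigs, and either label set by itself.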

Additional observations from a re-analysis of the deposited data

Results flagged for a closer look

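Values of the 9 marker probe sets were taken as 27 groups of 9 (failure, baseline and change). In 6 groups 1 pig lay far from the nearest of the others. For independent groups chance gives about 1 in 20 (1.35). The groups share the same 9 pigs, and each change is made from its failure and baseline values, so no excess is read from this count. In failure, KLRK1 was 3.32 in pig 14, with the next value at 3.80. CD3E in failure was 4.14 in pig 11, next to 4.69. At the dimmer CD4 probe set pig 5 was 3.39 in failure, next to 3.16, and pig 8 was 2.75 at baseline, next to 3.03. At the brighter one the CD4 change was 0.44 in pig 5, next to 0.08. CD8B at baseline was 5.70 in pig 5, next to 5.31. Pig 5, which accounts for 3 of the 6 values, is the pig with the highest GAPDH 3'/5' differences, and the part of RNA quality in these values was not tested.

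The CD79B change was above 0 in each of the 3 pigs of label set 2 (mean 0.20) and below 0 in each of the 6 of label set 1 (mean -0.10), although in pig 13 it was close to 0. The interaction test of this difference did not pass (adjusted p = 0.867 in limma).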

How the results depend on the processing

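The mean changes of CD8A and KLRK1 ran from -0.72 to -0.38 and from -0.76 to -0.16 over 18 alternatives. Leaving out or changing the block and the other variance model cannot move a mean in this balanced design, nor can rounding to 2 decimals move these 2 genes, so such alternatives say nothing about their direction. The extremes of both came from the label sets alone, and with 1 pig left out they ran from -0.57 to -0.39 and from -0.41 to -0.27. With those alternatives included, CD3E and CD2 kept their sign in 18 of 18, CD8B, CD79B and CCR7 in 13 of 18 and CD4 in 15 of 20. The median change of the markers (-0.04) was -0.0784 with the RNA quality covariate, -0.0747 in label set 1 and -0.101 in label set 2, and from -0.0666 to -0.0192 with 1 pig left out. The count of probe sets past the threshold (16) was 0 without the block for pig, 9 without dim probe sets, 10 with the other variance model, 9 with the covariate, 3 and 0 in label sets 1 and 2 alone, and from 2 to 26 with 1 pig left out. The pairing (no replicate block against pig as a block) changed the call of no marker. It could change none, since 0 markers passed with the block and 0 probe sets without it. No other lymphocyte gene passed under any alternative, and the interaction gave 0 throughout. For baseline levels by label set 5 probe sets passed, and from 0 to 2 with 1 pig left out. Of the marker pairs, 3 had an adjusted exact permutation p under 0.05 by Pearson, 0 by Spearman, 0 in label set 1 and 0 without the 2 farthest pigs (both with fewer animals). Since the genes were selected on these changes, this count supports nothing. The marker median was not recomputed without dim probe sets, since that filter removes all 8. Signal over background is not known for these genes.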

Other observations

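The number of decimals in the deposited values separated probe sets by the comparison of failure with baseline. Of the 23935 tested probe sets, 1467 had at most 2 decimals on all 18 arrays, and 1431 of these had an unadjusted p under 0.05 in an unmoderated paired test, against 0 of the 22468 with more decimals. The highest such p was 0.0564 among those with at most 2 decimals, and the lowest among those with more was 0.05001. All 16 probe sets past the threshold in limma were of the 2-decimal kind. So were 2 of the 8 lymphocyte markers, CD8A and KLRK1, and 5 of the 51 other lymphocyte genes (GNLY, GZMH, CCL5, LCK and FCGR3A), all with a lower mean in failure. Whether these rows were replaced or processed apart from the others before deposit is not known, and the values of these genes carry that doubt. With all values rounded to 2 decimals, an alternative chosen after seeing the data, 16 probe sets passed and the median change of the markers was -0.04.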
